A study of Mus musculus with 12 samples.

Results

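The 9 genes described here are clock output genes of mouse liver: the PAR bZIP transcription factors Dbp, Tef and Hlf, their antagonist Nfil3, the clock repressors Ciart, Bhlhe40 and Bhlhe41, the deubiquitinase Usp2 and the cell cycle kinase Wee1. They were taken by name from the 47263 genes of the deposited table, and all 9 were among the 13871 genes that passed a filter on low values. The list was chosen by known function, at a time when levels and differences of clock genes in these 12 libraries had been seen, so the values below describe these genes and give no independent support for the choice. RNA of whole liver was sequenced in 12 libraries, 3 in each of 4 groups. The 4 groups were KO MET/CAT, WT MET/CAT, KO GFP and WT GFP, where KO is a knockout of Sirt2 in hepatocytes and WT is wild type. MET/CAT stands for the oncogenes c-MET and DN90-β-catenin, an N-terminally truncated β-catenin, on pT3 plasmids under the EF1a promoter. They were given with the sleeping beauty transposase by hydrodynamic injection into the tail vein, a route that delivers plasmids mainly to hepatocytes. GFP livers are named for a GFP plasmid, which the labels do not describe further. Mice of all groups were 6 to 8 weeks old at injection, matched for age and gender and kept on a standard diet, and were killed 8 weeks later. The sources used here do not give sex, the Cre line behind the knockout or the hour at which the livers were taken. Groups follow the sample titles, because the separate treatment field goes by genotype (MET/CAT with KO, GFP with WT) and so goes against the titles of 2 of the 4 groups.

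In the mammalian clock, CLOCK and its partner BMAL1 (gene Arntl) switch on genes with E-box elements, among them the Per and Cry repressors, the nuclear receptors Nr1d1 and Nr1d2 and, as an output, Dbp. DBP, TEF and HLF then activate genes through D-box elements, while NFIL3 binds the same elements and represses. Nr1d1 and Nr1d2 repress Arntl and Nfil3 through ROR elements. In liver the RNAs of Dbp and Arntl, and those of Dbp and Nfil3, peak at nearly opposite times of day, and the PAR bZIP factors are known for driving daily rhythms of drug and sterol metabolism.

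Promoter windows of 300 bases, 250 before and 50 after the annotated start, were found in the RefSeq table (GRCm38.p6) for 7 of the 9 genes, Bhlhe40 and Wee1 being the other two. The 4 windows below belong to Dbp, Tef and Nfil3, whose 6 MET/CAT and 6 GFP libraries did not overlap, and to Ciart, the member with the most motif matches. Motifs found on either strand are in capitals, and each sequence runs 5′ to 3′ on the strand of its gene. The Dbp window is chr7:45704997-45705296, plus strand, that of Tef (the first of its 2 windows) chr15:81802423-81802722, plus strand, that of Nfil3 chr13:52980990-52981289, minus strand and that of Ciart chr3:95882179-95882478, minus strand.
Dbp: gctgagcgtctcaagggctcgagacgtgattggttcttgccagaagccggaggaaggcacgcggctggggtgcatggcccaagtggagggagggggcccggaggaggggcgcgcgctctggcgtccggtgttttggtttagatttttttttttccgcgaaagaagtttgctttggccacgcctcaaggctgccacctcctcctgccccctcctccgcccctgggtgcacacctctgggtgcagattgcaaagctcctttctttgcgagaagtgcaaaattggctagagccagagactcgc
Tef: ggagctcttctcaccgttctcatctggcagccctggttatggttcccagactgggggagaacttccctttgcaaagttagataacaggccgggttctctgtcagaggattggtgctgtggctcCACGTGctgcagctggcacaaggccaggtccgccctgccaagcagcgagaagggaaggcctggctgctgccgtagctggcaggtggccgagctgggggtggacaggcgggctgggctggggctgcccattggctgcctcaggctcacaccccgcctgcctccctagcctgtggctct
Nfil3: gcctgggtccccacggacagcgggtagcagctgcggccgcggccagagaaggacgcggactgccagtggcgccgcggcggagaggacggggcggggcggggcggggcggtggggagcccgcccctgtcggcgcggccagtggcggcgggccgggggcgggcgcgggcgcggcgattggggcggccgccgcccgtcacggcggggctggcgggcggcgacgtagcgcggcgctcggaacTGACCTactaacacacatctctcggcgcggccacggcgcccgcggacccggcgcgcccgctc
Ciart: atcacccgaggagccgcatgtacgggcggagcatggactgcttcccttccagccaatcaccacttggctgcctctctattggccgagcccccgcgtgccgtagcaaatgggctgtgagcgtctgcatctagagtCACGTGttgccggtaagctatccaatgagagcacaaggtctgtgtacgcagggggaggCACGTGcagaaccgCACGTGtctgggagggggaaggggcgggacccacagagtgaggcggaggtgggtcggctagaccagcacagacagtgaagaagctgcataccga

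The motifs searched were the E-box CACGTG, the related E-prime box CACGTT, the D-box TTANGTAA, the core AGGTCA of the ROR element and the cyclic AMP response element TGACGTCA. Ciart held 3 E-boxes, at −116, −58 and −44 bases from its start. Tef held 1 in each of its 2 windows, at −127 and −138, and Bhlhe41 held 1 at −153. An E-box was present in 7.15% of all 32851 windows in the table. Nfil3 held 1 ROR core on the reverse strand (TGACCT) at −12, a motif present in 16.3% of windows. Hlf held 1 cyclic AMP element at −9, against 1.79% of windows. No window of Dbp or Usp2 held any of the 5 motifs, and no window of the 7 genes held the E-prime box (4.68% of all windows) or the D-box (2.32%). No match overlapped another. These matches describe letters in the windows, and elements elsewhere in the genes were not searched.

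The libraries held 18208879 to 24352961 reads. Values are normalized reads, that is, gene counts scaled by 1 factor per library, 0.753 to 1.204 units per read. Sirt2 had 200.6 to 248.1 normalized reads in KO MET/CAT and 125.7 to 232.6 in KO GFP livers, against 908.4 to 1068 in WT MET/CAT and 725.8 to 923.6 in WT GFP livers, so the 6 KO and 6 WT libraries did not overlap. KO GFP replicate 3 stood apart on the first principal component (−88.95, with the other libraries at −33.18 to 52.78). Its deviations from each gene's mean over the 12 libraries rose with exon length across genes (Spearman rho 0.435 over 13816 genes). The 6 hepatocyte markers (Alb and others) summed to 1977000 to 2389000 normalized reads in KO MET/CAT and 2726000 to 3318000 in WT MET/CAT livers, against 1993000 to 2654000 in KO GFP and 2106000 to 2190000 in WT GFP livers. The 10 macrophage markers summed to 6541 to 8985 in KO MET/CAT and 5898 to 8363 in WT MET/CAT livers, against 1396 to 4364 in KO GFP and 7119 to 9955 in WT GFP livers. The 6 neutrophil markers summed to 347.3 to 2917 in KO MET/CAT and 300 to 910.0 in WT MET/CAT livers, against 40.68 to 77.81 in KO GFP livers, where Cxcr2 and Ly6g were at 0, and 62.83 to 148.5 in WT GFP livers, where Mmp8 was at 0. The 5 cholangiocyte markers summed to 585.9 to 1248 in KO MET/CAT and 395.4 to 639.9 in WT MET/CAT livers, against 186.2 to 440.9 in KO GFP and 354.0 to 431.8 in WT GFP livers. Between MET/CAT and GFP averaged over genotypes, limma called Sox9 alone of these 5 (2.11 on the log2 scale, adjusted p = 0.0153). In that comparison it called all 5 neutrophil markers tested higher, with a median difference of 3.29, beside 2.4% of all genes called higher. Only 5 of the 6 neutrophil markers passed the filter. With GFP values this low, the filter favoured markers that are high in MET/CAT livers. Limma called 1 of the 10 macrophage markers higher and 0 of the 6 hepatocyte markers. The part of these cell types in the results below was not tested. In bulk liver, fewer cells of a type and less RNA per cell cannot be told apart. No label ties each library to a mouse of its own, and the p-values therefore cover only the spread among the libraries, which may be technical.

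MET/CAT livers had less RNA of 5 of the 9 genes and more of 1 than GFP livers when the 2 genotypes were averaged. Dbp, Tef, Hlf, Usp2 and Wee1 fell and Nfil3 rose, by limma at a Benjamini-Hochberg adjusted p under 0.05 over all genes tested. In the same comparison 3.8% of all genes were called, 2.4% higher and 1.4% lower. The median difference of the 9 genes was −1.43 on the log2 scale, against 0.02 over all genes tested. That median is the value of Bhlhe41, which had few reads and passed the filter only through its GFP libraries. All differences are of log2(value + 1), a scale on which changes of low genes come out too small. Ciart (−1.75, adjusted p = 0.0721), Bhlhe41 (−1.43, adjusted p = 0.122) and Bhlhe40 (−0.02, adjusted p = 0.964) were not called. The hour at which the livers were taken is not given for any group, and these genes change with the time of day. A difference in hour between groups was not tested and cannot be told apart from a difference with MET/CAT. The plot of each library's values shows the 9 genes side by side.

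**Figure D1:**
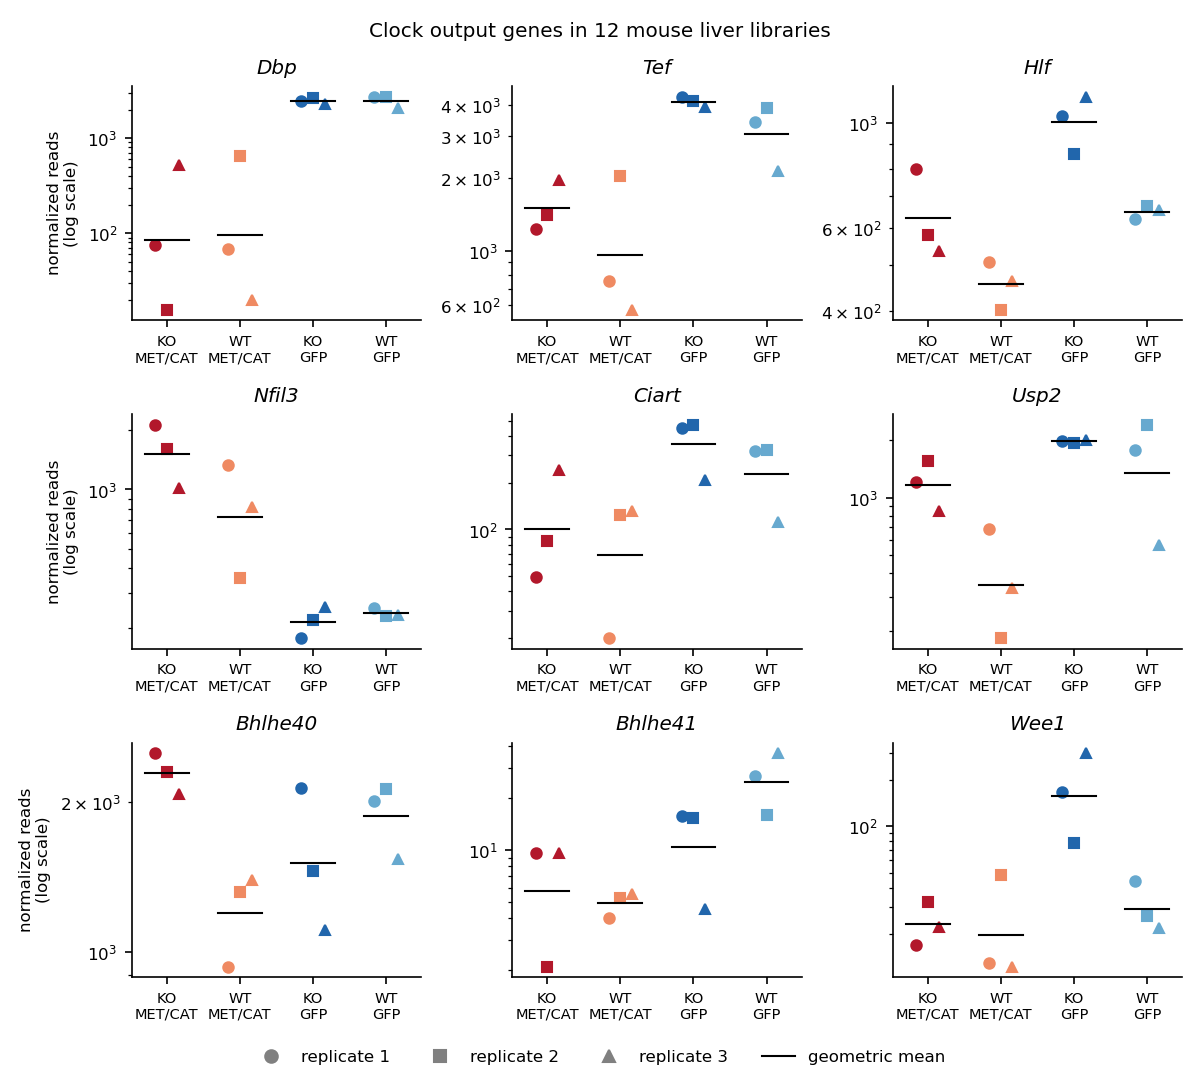
Normalized reads (log axis) of the 9 genes in each of the 12 libraries, by group, with a line at the geometric mean of 3 replicates and a symbol for the replicate number. The 6 MET/CAT libraries lie below the 6 GFP libraries for Dbp and Tef and above them for Nfil3, and the other 6 genes overlap.

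Dbp, the D-box activator with the widest daily rhythm of the PAR bZIP factors in mouse liver, lies at chr7:45705088-45710203 (GENCODE M21, GRCm38, plus strand). It had 75.86, 15.69 and 515.9 normalized reads in KO MET/CAT and 68.78, 648.5 and 20.01 in WT MET/CAT livers, against 2430, 2643 and 2258 in KO GFP and 2730, 2678 and 2058 in WT GFP livers. The highest MET/CAT library lay well below the lowest GFP library, and the MET/CAT libraries of each genotype spread widely while the GFP libraries lay close together. The coefficient of variation was 135% in KO MET/CAT and 142% in WT MET/CAT livers, against 7.90% in KO GFP and 15.0% in WT GFP livers. Averaged over genotypes Dbp fell by 4.73 on the log2 scale (SE 0.79, adjusted p = 0.00576). The call held with each of the 12 libraries left out in turn (adjusted p 0.000965 to 0.0187). An 18% share of its exon bases also lies in exons of Sphk2 on the other strand, and the sources used here give no strand setting for the counting, so reads there may be shared.

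Tef, the second PAR bZIP activator (chr15:81802421-81826863, plus strand), had 1234, 1411 and 1969 normalized reads in KO MET/CAT and 757.5, 2048 and 573.7 in WT MET/CAT livers, against 4344, 4150 and 3935 in KO GFP and 3403, 3907 and 2134 in WT GFP livers. The 6 MET/CAT libraries again lay below the 6 GFP libraries, but WT MET/CAT replicate 2, at 2048, came close to WT GFP replicate 3, at 2134. Tef fell by 1.56 (SE 0.27, adjusted p = 0.00641), a call held with each library left out.

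Hlf, the third activator (chr11:90336536-90390895, minus strand), had 798.4, 579.6 and 536.0 normalized reads in KO MET/CAT and 506.4, 401.8 and 462.5 in WT MET/CAT livers, against 1033, 857.8 and 1136 in KO GFP and 624.3, 666.3 and 653.1 in WT GFP livers. Within each genotype all MET/CAT libraries lay below all GFP libraries, but KO MET/CAT replicate 1 exceeded every WT GFP library. Hlf fell by 0.59 (SE 0.14, adjusted p = 0.0308). The call held without KO GFP replicate 2 or 3 or without replicate 1 of KO or WT MET/CAT, and was lost without any of the other 8 libraries (adjusted p 0.064 to 0.0748).

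Per exon kilobase, which allows levels of different genes to be compared, Dbp was the most abundant of the 3 activators in GFP livers and not in MET/CAT livers. Dbp averaged 67.7 ± 91.2 normalized reads per kilobase in KO MET/CAT and 82.1 ± 117 in WT MET/CAT livers, against 817 ± 64.5 in KO GFP and 832 ± 125 in WT GFP livers (SD, n = 3 each). Tef averaged 195.5 ± 48.7 per kilobase in KO MET/CAT and 143.2 ± 102 in WT MET/CAT livers, against 526.6 ± 26.0 in KO GFP and 400.2 ± 116 in WT GFP livers. Hlf averaged 95.5 ± 21.0 per kilobase in KO MET/CAT and 68.4 ± 7.86 in WT MET/CAT livers, against 151 ± 21.1 in KO GFP and 97.0 ± 3.22 in WT GFP livers. Of the summed signal per kilobase of the 3 genes, Dbp made up 8.40%, 1.93% and 34.3% in the KO MET/CAT and 11.8%, 40.3% and 4.49% in the WT MET/CAT libraries. In GFP livers its share was 52.95% to 57.4% with the knockout and 60% to 65.1% without it. Every MET/CAT library thus had a smaller Dbp share than every GFP library, and the KO GFP libraries lay below the WT GFP libraries. Tef held the largest share in all 6 MET/CAT libraries, 48.5% to 66.1%.

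**Figure D2:**
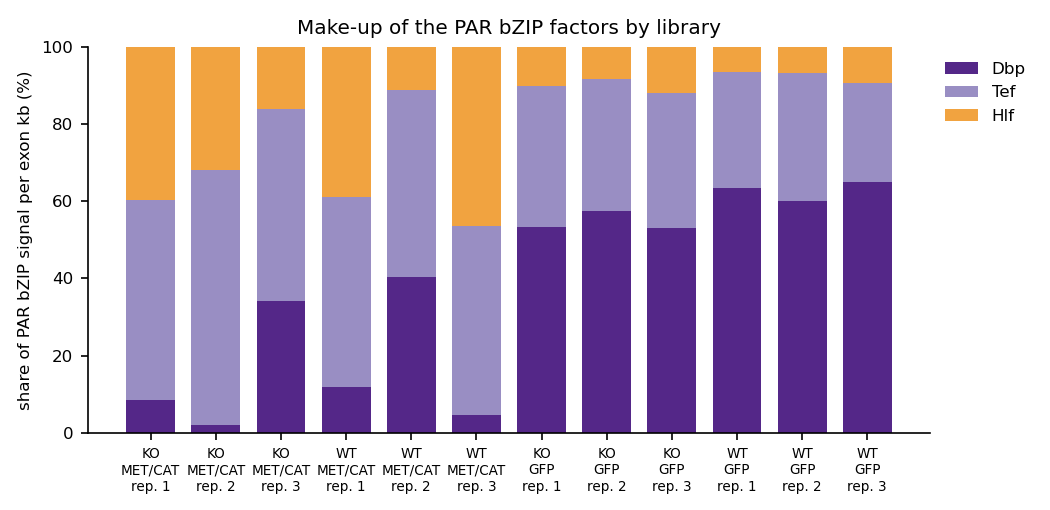
Share (%) of Dbp, Tef and Hlf in their summed signal per exon kilobase, one bar per library, MET/CAT groups on the left. Dbp takes 1.93% to 40.3% in MET/CAT libraries and 52.95% to 65.1% in GFP libraries.

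Nfil3, the D-box repressor that opposes these activators (chr13:52967209-52981073, minus strand), moved the other way. It had 2113, 1605 and 1014 normalized reads in KO MET/CAT and 1336, 356.4 and 813.9 in WT MET/CAT livers, against 177.7, 219.0 and 255.8 in KO GFP and 252.3, 228.9 and 233.9 in WT GFP livers. The lowest MET/CAT library, WT MET/CAT replicate 2 at 356.4, lay above the highest GFP library at 255.8. Averaged over genotypes Nfil3 rose by 2.21 on the log2 scale (SE 0.27, adjusted p = 0.000951), a call held with each library left out. Per exon kilobase it averaged 779 ± 272 in KO MET/CAT and 412 ± 242 in WT MET/CAT, against 107 ± 19.3 in KO GFP and 118 ± 6.08 in WT GFP livers (SD, n = 3 each). In the MET/CAT groups that level was above the mean of each PAR bZIP activator, and in the GFP groups it was below those of Dbp and Tef.

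The ratio of Dbp to Nfil3 normalized reads was 0.0359, 0.00978 and 0.509 in KO MET/CAT and 0.0515, 1.82 and 0.0246 in WT MET/CAT livers, against 8.83 to 13.7 in KO GFP and 8.80 to 11.7 in WT GFP livers. Nfil3 reads exceeded Dbp reads in 5 of the 6 MET/CAT libraries and in none of the 6 GFP libraries. The exception was WT MET/CAT replicate 2. Within the WT MET/CAT group that library had the most Dbp and Tef and the least Nfil3 and Hlf, and within the KO MET/CAT group replicate 3 did. The plot of Dbp against Nfil3 shows these 2 libraries as the MET/CAT points highest on the Dbp axis.

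**Figure D3:**
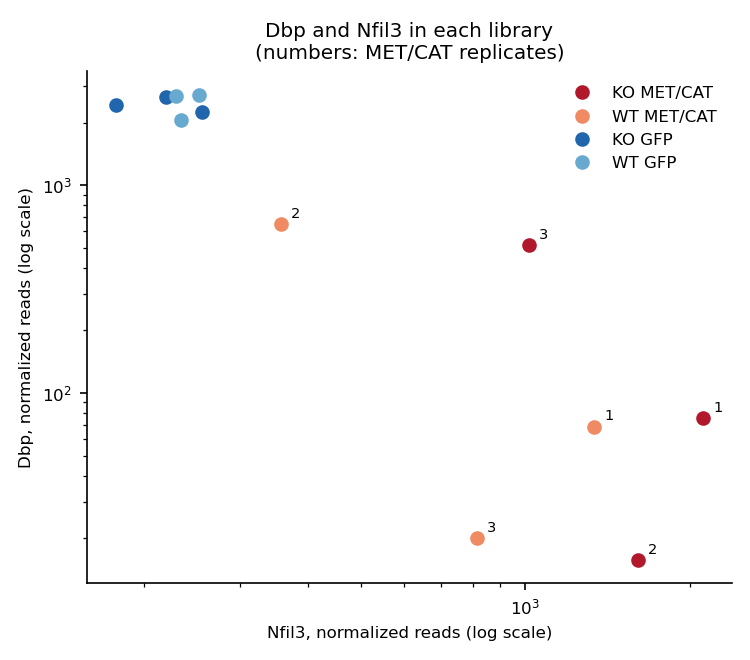
Dbp against Nfil3 in normalized reads (both axes log), one point per library, with MET/CAT points marked by replicate number. The GFP libraries lie together at 2058 to 2730 Dbp reads and 177.7 to 255.8 Nfil3 reads, and the MET/CAT libraries spread from 15.69 to 648.5 Dbp reads.

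Ciart, a repressor of CLOCK and BMAL1 (chr3:95878503-95882251, minus strand), varied widely within groups. It had 49.37, 84.74 and 239.9 normalized reads in KO MET/CAT and 19.94, 123.4 and 131.2 in WT MET/CAT livers, against 450.2, 470.7 and 207.9 in KO GFP and 321.1, 326.4 and 111.7 in WT GFP livers. Replicate 3 was the highest library of both MET/CAT groups and the lowest of both GFP groups, and the groups overlapped in each genotype. The averaged difference of −1.75 (SE 0.50) was not called at an adjusted p of 0.0721, and of the 12 fits with a library left out only that without KO MET/CAT replicate 3 called it (−2.07, adjusted p = 0.0395). Equal library totals (adjusted p = 0.0453), library quality weights (0.00479) and removal of length trends (0.0468) called it as well.

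Bhlhe40 and Bhlhe41 encode DEC1 and DEC2, which bind E-boxes and repress. Bhlhe40 (chr6:108660629-108666925, plus strand) had 2496, 2288 and 2073 normalized reads in KO MET/CAT and 937.0, 1318 and 1393 in WT MET/CAT livers, against 2131, 1453 and 1109 in KO GFP and 2006, 2117 and 1536 in WT GFP livers. The WT MET/CAT libraries lay below all others except KO GFP replicate 3. Its difference between MET/CAT and GFP was 0.59 in KO livers and −0.64 in WT livers, and neither was called (adjusted p = 0.193 in KO livers and 0.24 in WT livers). Bhlhe41 (chr6:145858243-145865558, minus strand) was the lowest of the 9 genes, at 9.63, 2.09 and 9.55 normalized reads in KO MET/CAT and 3.99, 5.27 and 5.56 in WT MET/CAT livers, against 15.8, 15.4 and 4.52 in KO GFP and 26.9, 15.9 and 36.4 in WT GFP livers. It passed the filter only through its GFP libraries, so the filter favoured its lower MET/CAT values. KO MET/CAT replicate 2 rests on 2 reads. A 19% share of its exon bases overlaps Gm43909 on the other strand.

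Usp2, a deubiquitinase with a daily rhythm in liver (chr9:44067021-44095627, plus strand), had 1214, 1557 and 847.1 normalized reads in KO MET/CAT and 681.8, 182.4 and 335.8 in WT MET/CAT livers, against 1978, 1931 and 2018 in KO GFP and 1768, 2404 and 566.5 in WT GFP livers. All KO MET/CAT libraries lay below the KO GFP libraries, while WT GFP replicate 3 fell among the WT MET/CAT libraries. Usp2 fell by 1.35 averaged over genotypes (SE 0.35, adjusted p = 0.0481). This call held only without WT GFP replicate 3 (adjusted p = 0.00907) or WT MET/CAT replicate 1 (0.0141), and leaving out any of the other 10 libraries ended it (adjusted p 0.0611 to 0.125).

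Wee1, the kinase that holds back mitosis by inhibiting CDK1 (chr7:110122046-110143286, plus strand), differed chiefly through the KO GFP livers. It had 16.86, 32.43 and 22.29 normalized reads in KO MET/CAT and 12.96, 48.51 and 12.23 in WT MET/CAT livers, against 168.6, 77.81 and 298.3 in KO GFP and 43.88, 26.06 and 21.65 in WT GFP livers. Only the KO GFP libraries lay above 50, and the other 3 groups overlapped. The averaged fall of 1.63 (SE 0.41, adjusted p = 0.0424) held only without KO GFP replicate 2 (adjusted p = 0.0292) or WT MET/CAT replicate 2 (0.0147), and ended without any of the other 10 libraries (adjusted p 0.0543 to 0.118). Among 10 mitotic entry genes around Wee1 (Cdk1, cyclins B, Cdc25 phosphatases, Plk1 and others), limma called 0 in this comparison, with a median of −0.32. The 4 with the smallest p were Cdk2 (−0.56, adjusted p = 0.139), Chek1 (−1.74, adjusted p = 0.206), Plk1 (0.78, adjusted p = 0.342) and Cdc25b (−0.42, adjusted p = 0.584). Of the 10, 2 had an unadjusted p under 0.05, as did 17.9% of all genes. Chek1 passed the filter through its GFP libraries, chiefly KO GFP (20.33, 38.42 and 68.7 normalized reads). Of its MET/CAT libraries only KO MET/CAT replicate 2 (10.46) reached the filter value of 10. The filter thus favoured its lower MET/CAT values.

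Within KO livers, 2 of the 9 genes were called between MET/CAT and GFP, beside 1.25% of all genes (0.858% higher, 0.397% lower). Nfil3 rose by 2.80 (SE 0.39, adjusted p = 0.00579), and Wee1 fell by 2.72 (SE 0.58, adjusted p = 0.0396). The Nfil3 call held with each library left out. The Wee1 call held without KO GFP replicate 2 or any one WT MET/CAT library, and was lost without any of the other 8, among them KO GFP replicate 3 (−2.27, adjusted p = 0.137). Dbp differed by −4.81 (SE 1.11, adjusted p = 0.0527) and Tef by −1.46 (SE 0.38, adjusted p = 0.0758). Libraries of KO MET/CAT and KO GFP did not overlap for 6 genes: Nfil3 was higher, and Dbp, Tef, Hlf, Usp2 and Wee1 were lower. Of all genes, 14.4% were higher and 10.7% lower with no overlap.

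Within WT livers, 0 of the 9 genes were called between MET/CAT and GFP by limma, beside 0.339% of all genes (0.209% higher, 0.13% lower). An unadjusted p under 0.05 was reached by 8 of the 9 and by 14.8% of all genes. EdgeR called 0 of the 9, and 73 of all genes. DESeq2 called 4, and 567 of all genes, and gave no adjusted p for Dbp. Dbp differed by −4.65 (SE 1.11, adjusted p = 0.0824), Tef by −1.66 (SE 0.38, adjusted p = 0.0679), Nfil3 by 1.61 (SE 0.39, adjusted p = 0.0824) and Usp2 by −1.95 (SE 0.49, adjusted p = 0.0971). Without WT MET/CAT replicate 2, Dbp, Tef and Nfil3 passed the threshold. Libraries did not overlap for 6 genes: Nfil3 was higher, and Dbp, Tef, Hlf, Bhlhe40 and Bhlhe41 were lower, with 10.5% of all genes higher and 10.3% lower. The 6 MET/CAT and 6 GFP libraries of both genotypes did not overlap for Dbp, Tef and Nfil3, and 1.61% of all genes were higher and 0.872% lower in that way.

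**Figure D4:**
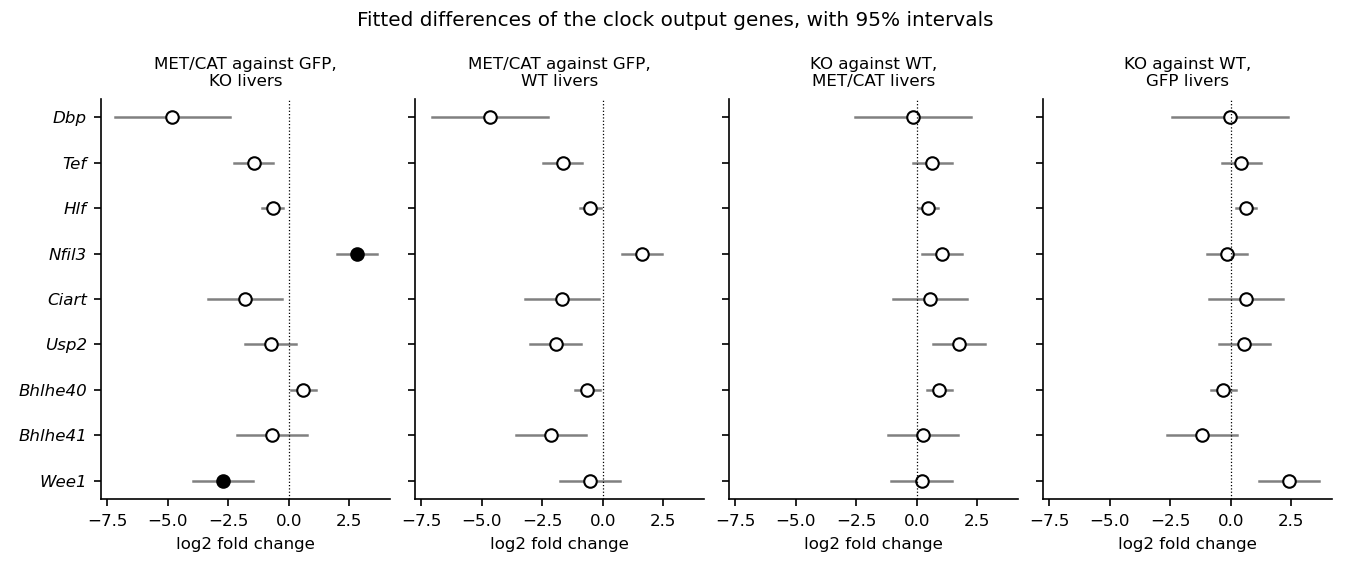
Fitted log2 differences of the 9 genes with 95% intervals in 4 comparisons, filled where the adjusted p was under 0.05. Nfil3 (2.80) and Wee1 (−2.72) are filled in KO livers between MET/CAT and GFP, and no gene is filled in the other 3 panels.

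Whether the MET/CAT difference itself differed with genotype was tested as an interaction. By limma 0 of the 9 genes were called, beside 0% of all genes. EdgeR and DESeq2 called 0 of the 9 as well, DESeq2 with 155 of all genes called and no adjusted p for Dbp. An unadjusted p under 0.05 was reached by 15.5% of all genes and by 3 of the 9, Bhlhe40 (1.24, SE 0.34, adjusted p = 0.265), Nfil3 (1.19, SE 0.55, adjusted p = 0.319) and Wee1 (−2.19, SE 0.82, adjusted p = 0.268). The interval of the interaction for Dbp reached from −3.54 to 3.23, so differences of either sign within that range are not excluded. Call differences between KO and WT livers are therefore not shown to be differences in response.

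Between KO and WT livers given MET/CAT, the levels stand as a description, since an earlier account of these data had picked out clock genes in that comparison. Hlf, Usp2 and Bhlhe40 were higher in all 3 KO than in all 3 WT libraries, with 6.82% of all genes higher and 7.01% lower in that way. Usp2 averaged 1206 ± 355 normalized reads in the KO libraries and 400.0 ± 256 in the WT libraries (SD, n = 3 each). Bhlhe40 averaged 2286 ± 212 in KO MET/CAT and 1216 ± 245 in WT MET/CAT livers, and Hlf averaged 638 ± 141 in KO MET/CAT and 456.9 ± 52.5 in WT MET/CAT livers. Nfil3 overlapped, at 1577 ± 550 in KO MET/CAT and 835 ± 490 in WT MET/CAT livers, as did Dbp, at 202.5 ± 273 in KO MET/CAT and 245.8 ± 350 in WT MET/CAT livers. Limma, edgeR and DESeq2 each called 0 of the 9 genes, beside 0.00721% of all genes by limma and 34 genes by DESeq2. By limma 4 of the 9 had an unadjusted p under 0.05, as did 7.76% of all genes. Averaged over plasmids, limma and edgeR called 0 of the 9 between KO and WT livers, beside 0.0144% of all genes by limma. DESeq2 called 1 of them, and 39 of all genes. By limma 3 had an unadjusted p under 0.05, as did 8.11% of all genes. Between KO and WT livers given GFP, limma and edgeR called 0 of the 9, beside 0.00721% of all genes by limma. DESeq2 called Wee1 alone of the 9, and 118 of all genes. By limma 2 of the 9 had an unadjusted p under 0.05, as did 15.5% of all genes. DESeq2 gave no adjusted p for Dbp or Bhlhe41 in the comparisons of KO with WT livers. In GFP livers Tef, Hlf and Wee1 were higher and Bhlhe41 lower in KO than in WT libraries without overlap, beside 9.15% of all genes higher and 13% lower. Wee1 differed by 2.39 (SE 0.58, adjusted p = 0.247) and Hlf by 0.63 (SE 0.20, adjusted p = 0.283). In that comparison the 10 macrophage markers also had lower values in KO GFP livers, with a median difference of −1.44.

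Of the 16 core clock genes, 2 rose and 4 fell in MET/CAT livers averaged over genotypes, beside the 3.8% of all genes called, with a median of −0.21. Arntl, the gene of BMAL1, had 249.3, 184.1 and 85.98 normalized reads in KO MET/CAT and 199.4, 54.83 and 291.3 in WT MET/CAT livers, against 8.28, 2.88 and 25.3 in KO GFP and 14.96, 10.2 and 30.3 in WT GFP livers. The MET/CAT libraries all lay above the GFP libraries, and Arntl rose by 3.54 (SE 0.52, adjusted p = 0.00246). Its partner Clock rose by 1.16 (SE 0.25, adjusted p = 0.0184), a call lost without WT GFP replicate 2 (adjusted p = 0.0506) or WT MET/CAT replicate 3 (0.0534).

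The repressors Per3, Per2 and Cry2 and the nuclear receptor Nr1d2 fell. Per3 had 75.86, 65.91 and 118.9 normalized reads in KO MET/CAT and 51.83, 138.1 and 24.46 in WT MET/CAT livers, against 648.2, 482.2 and 600.2 in KO GFP and 478.7, 261.8 and 362.9 in WT GFP livers. It fell by 2.70 (SE 0.34, adjusted p = 0.000951), with no overlap between the 6 MET/CAT and 6 GFP libraries. Nr1d2 fell by 1.53 (SE 0.29, adjusted p = 0.0111), Per2 by 1.30 (SE 0.26, adjusted p = 0.013) and Cry2 by 0.54 (SE 0.14, adjusted p = 0.0425). The Cry2 call held in 3 of the 12 fits with a library left out, and those of Arntl, Per3, Nr1d2 and Per2 in 12. Nr1d1 was not called (−0.74, adjusted p = 0.535), and its groups overlapped. It had 48.17, 73.23 and 364.1 normalized reads in KO MET/CAT and 543.2, 1096 and 133.4 in WT MET/CAT livers, against 257.6 to 321.8 in KO GFP and 191.5 to 926.8 in WT GFP livers.

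The libraries that deviated for Dbp and Nfil3 did so for these genes too. WT MET/CAT replicate 2 and KO MET/CAT replicate 3 each had the lowest Arntl and Clock and the highest Per3, Nr1d1 and Nr1d2 of their groups. KO GFP replicate 3 and WT GFP replicate 3 each had the highest Arntl and the lowest Dbp, Tef, Ciart and Bhlhe40 of their groups. The heat map of clock genes shows this library by library.

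**Figure D5:**
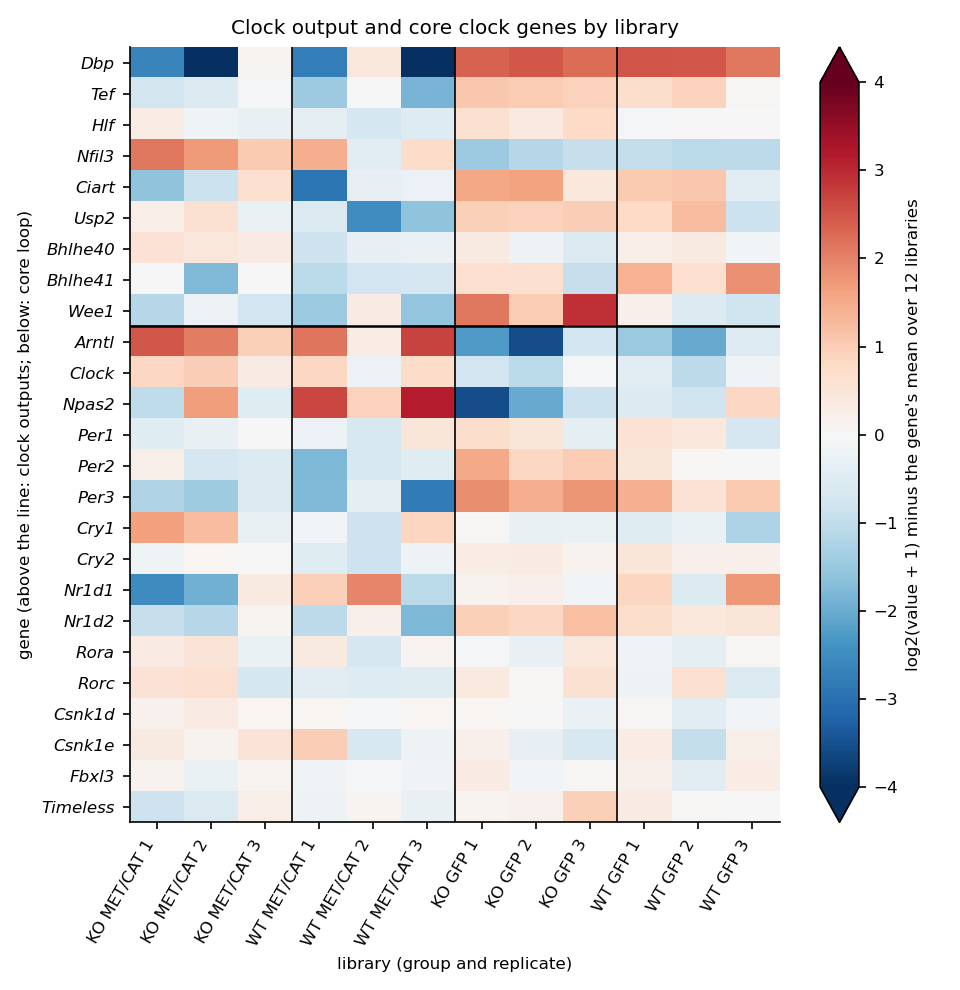
Log2(value + 1) minus the mean of each gene over 12 libraries for the 9 clock output genes (above the line) and 16 core clock genes (below), one column per library, with colours capped at the ends of the scale. Dbp, Tef, Per3 and Nr1d2 are lower (blue) and Nfil3, Arntl and Clock higher (red) in most MET/CAT columns.

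Among 14 genes known or reported to lie under PAR bZIP factors in mouse liver, 3 fell and 1 rose in MET/CAT livers averaged over genotypes, beside 1.4% of all genes lower and 2.4% higher, with a median of −0.60 against 0.02 over all genes tested. Cyp7a1, the rate-limiting enzyme of bile acid synthesis, had 513.0, 782.5 and 476.6 normalized reads in KO MET/CAT and 757.5, 1408 and 1273 in WT MET/CAT livers, against 2642, 2604 and 8181 in KO GFP and 1268, 1142 and 2135 in WT GFP livers. The KO libraries did not overlap and the WT libraries did, and the averaged fall was 1.56 (SE 0.29, adjusted p = 0.00875). Upp2, a uridine phosphorylase, fell by 0.95 (SE 0.19, adjusted p = 0.0156), and Cyp2a4, a steroid hydroxylase, fell by 1.07 (SE 0.22, adjusted p = 0.0175). Cyp2a4 and its near copy Cyp2a5 (−1.03, adjusted p = 0.0609) may share reads, so their values are uncertain. Cyp2b10, a drug-metabolizing enzyme and classical target of the receptor CAR, rose. It had 149.3, 279.3 and 182.6 normalized reads in KO MET/CAT and 1830, 716.0 and 175.7 in WT MET/CAT livers, against 48.8 to 69.3 in KO GFP and 19.9 to 69.1 in WT GFP livers, with a difference of 2.79 (SE 0.46, adjusted p = 0.0056). The 4 calls held with each library left out. Of the 10 genes not called, 4 had a difference above 0, among them the fatty acid hydroxylases Cyp4a14 (0.79, adjusted p = 0.0596) and Cyp4a10 (0.78, adjusted p = 0.1).

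Genes whose levels followed Dbp or Nfil3 over the 12 libraries were ranked by Pearson's r of log2 values, as a description in which all points share the 4 groups. The highest r with Dbp were those of Cyp2g1 (0.973), Nr1d2 (0.961), Gpr146 (0.959), Pld6 (0.949) and Klhdc7a (0.944), and Tef came 12th (0.896), with predicted genes and pseudogenes left out. Among the lowest were those of Glul (−0.964), Ablim3 (−0.942), Chka (−0.933) and Dlk1 (−0.926). Glul, the glutamine synthetase of pericentral hepatocytes, is a classical β-catenin target in liver. The highest r with Nfil3 were those of Arl4a (0.963), Dlk1 (0.953), the survival gene Bcl2l1 (0.932), Glul (0.93) and the cytokine signalling inhibitor Socs3 (0.929). The lowest were those of Enpp5 (−0.916), Cobl (−0.911), Epha1 (−0.911), Stard4 (−0.902) and Map2k6 (−0.898). Between Dbp and Nfil3 themselves r was −0.886.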

How the data were processed

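RNA of whole mouse liver was measured in 12 libraries, 3 per group. The authors worked with build GRCm38, HISAT2 2.0.4 and HTSeq 0.11.2, per the submitters' processing notes. The sources used here give neither strand setting nor normalization tool. Each deposited value is a signal, a gene's count multiplied by 1 factor per library. Dividing by that factor gave whole reads (within 0.001 reads) for 100% of the values, which edgeR 4.0.16 and DESeq2 1.42.0 used as alternatives. The main test was limma-trend (limma 3.58.1, R 4.3.3) on log2(value + 1), 1 fit of 4 group means over 12 libraries without a block. It covered the 13871 genes that reached a value of 10 in 3 or more libraries. The fit was also run on simulated counts that had the same spread setting for every gene. That run cannot show how the fit performs for genes that vary as widely as Dbp. Benjamini-Hochberg adjusted p cover all genes tested, and a gene was called under 0.05.

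The members and lists were chosen with earlier results of these data known. Every member is given, and of each other list the genes called or, with none, the 4 with the smallest p. Nr1d1, Npas2, Cyp2a5, Cyp4a14 and Cyp4a10 were added after their values were seen. For Dbp and Nfil3 the 5 genes with the highest and the lowest r are named, without predicted genes and pseudogenes; 1 of them is not reported here. Exon lengths come from GENCODE M21. Sequences come from RefSeq (GRCm38.p6). In this depth range a count of 0 allows up to 2.26 to 3.61 normalized units (3 reads, counting error only). Alternatives were other pseudocounts, filters and normalizations, library weights, removal of length trends, the count tools, a replicate block, fits of 6 libraries and each library left out. Of the 47263 genes, 4 rows with a repeated name were never named. Figures used Python 3.11.15 and matplotlib 3.10.9.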

Additional observations from a re-analysis of the deposited data

How the results depend on the processing

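Averaged over genotypes, 6 of the 9 genes were called between MET/CAT and GFP. The other settings gave 4 to 8, and leaving out 1 library gave 3 to 5. In KO livers, where 2 were called, no filter and the replicate block gave 1, quantile normalization, equal library totals and DESeq2 gave 4 and library quality weights gave 6, with 1 to 4 when 1 library was left out (4 without WT MET/CAT replicate 2). In WT livers, where 0 were called, removal of length trends gave 1, DESeq2 4 and library quality weights 8, with 0 to 3 when 1 library was left out (3 without WT MET/CAT replicate 2). Between KO and WT, DESeq2 and library quality weights gave 1 and 2 in GFP livers and 1 each averaged over plasmids, where limma gave 0. For the interaction, weights gave 1 in place of 0. No filter ended the calls of Usp2 (adjusted p = 0.0638) and Wee1 (0.0763, and 0.0632 in KO livers), of Cry2 (0.0585) and of Gys2 (0.0571), and the fit of 6 libraries that of Wee1 in KO livers (0.0531). The cause was not tested.

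Same-numbered libraries deviated together with r over 0.1 in 5 of 18 pairs (−0.195 to 0.28). Among these were WT GFP with KO GFP at replicate 2 (0.28) and at replicate 3 (0.264). Some pairs with different numbers also exceeded 0.1. This count cannot decide whether replicate numbers pair the libraries. The replicate block gave 5 calls averaged over genotypes and ended those of Wee1 (adjusted p = 0.0635, and 0.0548 in KO livers) and Cry2 (0.0635).

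Small differences changed sign. Between KO and WT in GFP livers, Dbp was 0.044 by edgeR, 0.157 with equal totals, 0.153 without length trends and 0.138 after quantile normalization (−0.149 to 0.055 with a library left out), Nfil3 was 0.028 with equal totals and 0.175 without length trends, Bhlhe40 was 0.011 with weights, and Usp2 ranged from −0.062 to 0.98 with a library left out. Between KO and WT in MET/CAT livers, Wee1 was −0.042 by DESeq2, −0.038 by edgeR and −0.037 with weights (−0.13 to 0.82 with a library left out), and leaving out a library gave −0.046 to 0.845 for Bhlhe41, −0.34 to 1.04 for Ciart and −1.46 to 1.19 for Dbp. Bhlhe40 ranged from −0.13 to 0.10 between MET/CAT and GFP averaged over genotypes.

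Counts over all genes moved more. Averaged over genotypes 527 genes were called, against 1139 by DESeq2 and 2377 with weights (277 to 720 with a library left out). In KO livers 174 were called, against 928 by DESeq2, 1635 with weights, 84 with 6 libraries and 48 to 263 with a library left out. In WT livers 47 were called, against 73 by edgeR, 567 by DESeq2, 2615 with weights and 3 to 372 with a library left out. In WT livers quantile normalization gave 81, equal totals 71 and removal of length trends 121. Between KO and WT, 1 gene was called in GFP livers (118 by DESeq2, 4575 with weights, 7 with the block, 0 with 6 libraries), 1 in MET/CAT livers (34 by DESeq2, 2 with weights) and 2 averaged over plasmids (39 by DESeq2, 160 with weights, 1 by edgeR), and 0 for the interaction (155 by DESeq2, 1374 with weights, 2 with the block). DESeq2 gave no adjusted p for Dbp in any comparison, or for Bhlhe41 between KO and WT, and these stay out of its counts. Of the 9 genes Bhlhe41 had the fewest reads (2.09 to 36.4 normalized reads), and counting error weighs most there.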

Other observations

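Among 12 other rhythmic liver outputs, 1 rose and 2 fell in MET/CAT livers averaged over genotypes, beside 2.4% of all genes higher and 1.4% lower, with a median of −0.23 against 0.02 over all genes tested. Insig2, which retains the sterol sensor complex in the endoplasmic reticulum, had 3283, 3610 and 4234 normalized reads in KO MET/CAT and 4331, 1630 and 5093 in WT MET/CAT livers, against 994.2 to 1410 in KO GFP and 896.4 to 1423 in WT GFP livers. It rose by 1.62 (SE 0.24, adjusted p = 0.00275 by limma), and the 6 MET/CAT libraries lay above the 6 GFP libraries. Nampt, the NAD salvage enzyme under CLOCK and BMAL1, fell by 0.85 (adjusted p = 0.0188), a call lost without WT GFP replicate 1 (0.0601), WT GFP replicate 2 (0.0508) or KO GFP replicate 1 (0.0501). Gys2, the liver glycogen synthase, fell by 0.82 (adjusted p = 0.0405), a call held only without WT GFP replicate 3 (0.0293) or KO GFP replicate 3 (0.00687).

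Npas2, a stand-in for CLOCK, had 4.82, 36.6 and 7.43 normalized reads in KO MET/CAT and 73.8, 21.1 and 102.3 in WT MET/CAT livers, against 0.0, 1.92 and 5.42 in KO GFP and 6.98, 5.67 and 19.9 in WT GFP livers. It was not called averaged over genotypes (2.31, adjusted p = 0.0599 by limma). Npas2 passed the filter through its MET/CAT libraries. Of its GFP libraries only WT GFP replicate 3 (19.9) reached the filter value. The filter thus favoured its higher MET/CAT values.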
